A study of Mus musculus with 96 samples.

Results

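The 10 genes described here are the Notch receptors Notch1, Notch2, Notch3 and Notch4, the ligands Jag1 and Dll1, and the target genes Hes1, Hey1, Hey2 and Heyl. They were chosen by name, all 10 were found among 37945 genes measured, and 8 passed the filter on low values that left 15760 genes for testing. Dll1 and Heyl did not pass it. Libraries came from calvarial cells of pups aged 3 to 5 days, from 42 strains of the Collaborative Cross, a panel of recombinant inbred mice bred from several founder strains. Every culture grew for 48 h before a switch to differentiation conditions (ascorbic acid plus beta-glycerol phosphate, which drive osteoblasts to mineralise), and RNA was taken after 10 days of these. The strain was the only difference between groups that the labels gave, and no group was a treated or untreated control.

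Notch receptors are single-pass membrane proteins that bind ligands of the Jagged and Delta-like families on neighbouring cells. Binding leads to cleavage of the receptor, and the freed intracellular part enters the nucleus, where with RBPJ and Mastermind proteins it turns on genes of the HES and HEY families, which encode transcriptional repressors. In bone, Notch signalling is known for holding back the maturation of osteoblast precursors, with effects that depend on the stage of the cell.

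There were 96 samples and 95 independent libraries, because 1 CC030 sample was sequenced 2 times and entered as the mean of its runs. Most strains (31) had 2 libraries, 6 strains had 4 and 2 strains had 3. CC011, CC035 and CC024 had 1 library each. Whether the libraries of a strain are separate animals or cultures is not in the labels, and p-values therefore reflect only the spread between these libraries, which may be technical. Estimated depth was 20.9 to 39.8 Mreads per library (median 27.6; 1 Mread is 1000000 reads), apart from 1 CC075 library at 82.8. Osteoblast markers were abundant, with a summed level of 2442 to 17924 scaled TPM over 10 genes. Macrophage markers ranged from 30.2 to 5085 scaled TPM over 10 genes. Of 8 endothelial markers 4 (Pecam1, Emcn, Cldn5 and Tie1) had a median under 0.1 scaled TPM. CC030 and CC071 had the lowest osteoblast marker scores, and the CC051 libraries stood far apart from each other, so relations across strains are given with and without these strains where that ends a call. TPM is a relative abundance corrected for transcript length. All levels below are TPM after scaling between libraries, and all log2 values are log2(scaled TPM + 0.5), a scale that makes changes of low genes look smaller.

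RefSeq promoter entries (build GRCm38.p6) were found for 7 of the 10 genes, and Hes1, Hey1 and Heyl had none. The strain means of Notch3, a receptor, and Hey2, a target, were positively correlated, although neither gene passed the strain test. They are the only receptor and target pair whose positive relation across strains passed at an adjusted permutation p under 0.05. The 250 bases before the start of each are therefore shown. Both are on the minus strand, at chr10:30842784-30843033 for Hey2 and chr17:32166891-32167140 for Notch3, and are printed 5′ to 3′ with matches to TGGGAA, the core of the RBPJ motif, or to its complement TTCCCA in capitals.
Hey2: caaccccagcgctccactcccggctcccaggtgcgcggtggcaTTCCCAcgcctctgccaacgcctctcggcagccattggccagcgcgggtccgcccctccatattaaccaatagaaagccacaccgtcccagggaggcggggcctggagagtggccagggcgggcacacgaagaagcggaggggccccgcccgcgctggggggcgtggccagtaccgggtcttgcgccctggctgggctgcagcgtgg
Notch3: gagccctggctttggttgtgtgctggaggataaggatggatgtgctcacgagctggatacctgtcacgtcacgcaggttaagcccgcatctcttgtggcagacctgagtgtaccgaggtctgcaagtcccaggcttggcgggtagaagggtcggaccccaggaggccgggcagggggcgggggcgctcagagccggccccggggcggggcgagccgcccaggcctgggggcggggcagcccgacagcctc
The Hey2 window held 1 match, in the part farthest from the start, and none was found in the windows of the other 6 genes. On either strand, 21.6% of 32851 promoter windows of this length held such a match. The Notch3 window held 2 matches to the N-box CACNAG (complement CTNGTG), a motif bound by HES proteins, which 36.7% of all windows held, and Notch1 and Notch2 held 1 each. CACGTG, an E-box, was found in none of the 7 genes and in 6.02% of all windows. The first bases after the RefSeq start were found in a GENCODE transcript for Hey2 but not for Notch3, so the Notch3 window may not sit at the start used in the annotation.

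Among the receptors, Notch2 was the most abundant in 95 of 95 libraries. Its level ran from 5.55 through a median of 9.39 to 15.1 scaled TPM, and it held 57.5% to 82.6% of the summed receptor TPM (median 69.4%). Notch3, the receptor best known from vascular smooth muscle and pericytes, was next at 0.928, 2.54 and 5.51 scaled TPM (lowest, median and highest library), a median share of 19.1%. Notch1 lay at 0.609, 1.43 and 3.54 and was below Notch3 in 85 of 95 libraries. Notch4, best known from endothelium, lay at 0.0324, 0.205 and 0.555, with a median share of 1.51%. Only 5 of 95 libraries reached 0.5 TPM of Notch4 before scaling, so it passed the filter through few libraries. The range of Notch2 did not overlap that of any other receptor, with 5.55 in its lowest library against 5.51 in the highest of Notch3. A median of 15.7 estimated reads stood behind Notch4, against 371 for Notch1, 621 for Notch3 and 3219 for Notch2. Only 28.0% of Notch4 TPM was in transcripts annotated as protein coding, so most of its level came from other transcripts of the locus. With protein-coding transcripts only, Notch4 did not pass the filter, and the results on it below rest on all its transcripts.

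Jag1, a transmembrane ligand, lay at 5.54, 9.10 and 12.8 scaled TPM. It made up 63.8% to 97.7% of the summed TPM of Jag1, Jag2, Dll1, Dll3 and Dll4 (median 84.2%), and was above Jag2 in 95 of 95 libraries. The share was highest in CC030, at 96.0% ± 2.39 (SD, n = 2), and lowest in CC075, at 70.7% ± 1.27 (SD, n = 3). Dll1, the Delta-like ligand, was listed at 0 in 6 libraries and reached 0.441 scaled TPM, with a median of 0.0877, on a median of 4.91 estimated reads.

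Of the targets, Hes1 lay at 7.42, 17.1 and 29.6 scaled TPM and was above Hey1 in 95 of 95 libraries. Hey1 ranged from 0.0855 through 2.21 to 7.11. Hey2 lay at 0.0858, 0.360 and 1.71, and only 30 of 95 libraries reached 0.5 TPM before scaling. Heyl lay at 0, 0.116 and 0.672 and was listed at 0 in 1 library. Hes1 held a median of 85.5% of the summed TPM of these 4 targets and Hey1 11.5%. Among strains with at least 2 libraries, the Hey1 share ranged from 4.29% ± 0.0418 (SD, n = 2) in CC071 to 26.0% ± 4.32 (SD, n = 2) in CC007, and it was 27.2% in the single CC011 library.

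**Figure D1:**
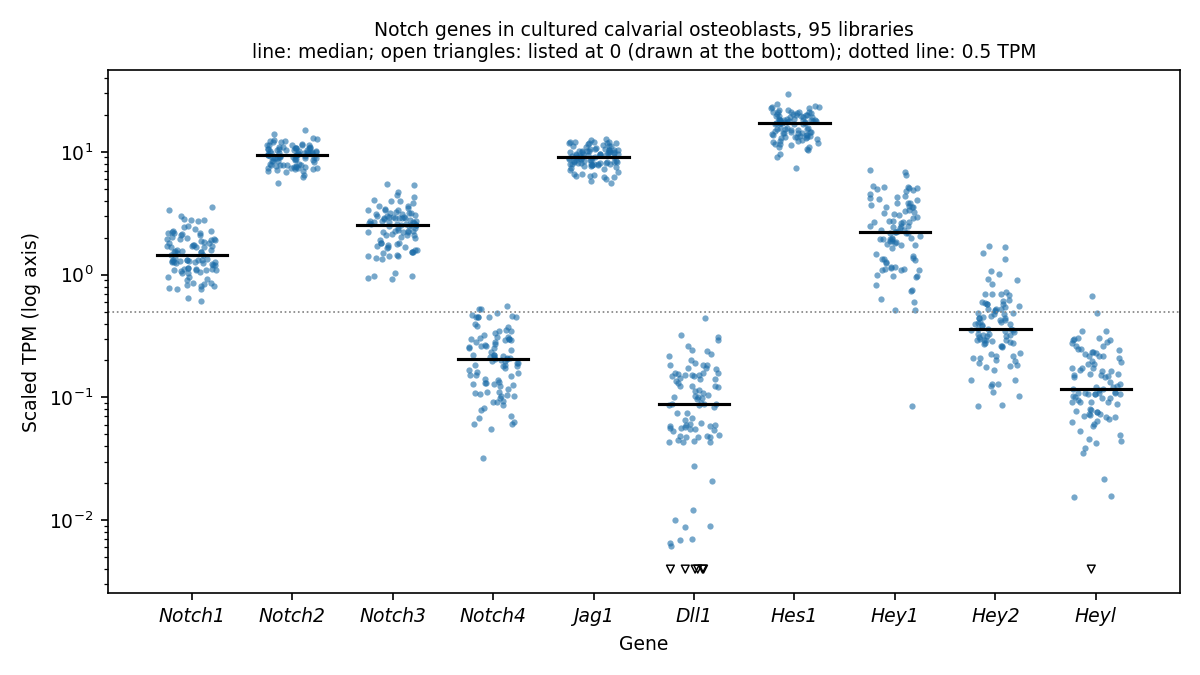
Level of each Notch gene in scaled TPM (log axis) in each of 95 libraries, with the median as a line, libraries listed at 0 as open triangles and the 0.5 TPM of the filter as a dotted line. Notch2, Jag1 and Hes1 form the upper level, Notch1, Notch3 and Hey1 the middle, and Notch4, Dll1, Hey2 and Heyl the lower.

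Whether strains differed was tested with limma over 39 strains with at least 2 libraries (92 libraries). Of the 8 genes tested, 6 passed at an adjusted p under 0.05 (Notch1, Notch2, Notch4, Jag1, Hes1 and Hey1), and Notch3 and Hey2 did not. Among all 15760 genes 81.5% passed, so 6 of 8 is near the background. The share of variance between strains had a median of 0.353 over the 8 genes and 0.471 over all genes tested, and the distance from the lowest to the highest strain had medians of 1.27 and 1.02 log2. Each strain was also compared with the mean of the others. Of 312 gene by strain contrasts of the 8 genes, 31 passed, which is 9.94%. Over all genes 14.8% passed, 7.72% as higher and 7.08% as lower.

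Hey1 differed most. In CC012 its 2 libraries had 7.11 and 5.10 scaled TPM, and in CC071 they had 0.516 and 0.512. Only 1 library of the series, of CC051, was below those of CC071. Mean levels were 6.11 scaled TPM in CC012 and 0.514 in CC071. On the log2 scale with 0.5 added, these strains differed by 2.69 log2 (limma F test, adjusted p = 1.90e-10). The share of variance between strains was 0.718. Against the mean of the others, 8 strains were higher and 7 lower. CC012 was higher by 1.29 log2 (SE 0.27, limma adjusted p = 0.000393), followed by CC007 at 5.69 ± 1.13 scaled TPM (SD, n = 2), CC019 at 5.11 ± 0.145 (SD, n = 2) and CC006 at 4.78 ± 0.373 (SD, n = 2). CC009, CC044, CC001 and CC041 were the other 4 above the rest. CC071 fell below the others by 1.47 log2 (SE 0.27, limma adjusted p = 5.77e-05). In CC015 all 4 libraries were low, at 0.824, 0.635, 1.12 and 0.596 scaled TPM, and it fell by 1.12 log2 (SE 0.19, limma adjusted p = 1.78e-05). CC065, CC043, CC030, CC055 and CC025 were the other 5 below the rest.

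The single library of CC011, which entered no test, had 6.90 scaled TPM of Hey1, near the top of the range. The CC051 libraries disagreed, with 0.0855 and 4.22 scaled TPM of Hey1, on 6.63 and 312 estimated reads. They also disagreed for Hes1, at 7.42 and 18.4, while for Notch1 they were alike at 1.35 and 1.32. No CC051 contrast passed for any of the 8 genes.

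Hes1 was highest in CC045, at 23.8 and 29.6 scaled TPM, and lowest in CC030, at 9.04 and 9.56. The means of these strains differed by 1.46 log2 and the strain test passed (limma adjusted p = 2.21e-05). CC045 was higher than the others by 0.71 log2 (limma adjusted p = 0.00245), and 4 strains were lower. These were CC030 (by -0.80 log2, limma adjusted p = 0.000574), CC071 at 10.9 ± 0.0112 scaled TPM (SD, n = 2), CC038 at 12.1 ± 1.22 (SD, n = 4) and CC008 at 12.9 ± 2.25 (SD, n = 4). CC012, at the top for Hey1, had 18.1 and 24.3 scaled TPM of Hes1 and did not pass.

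**Figure D2:**
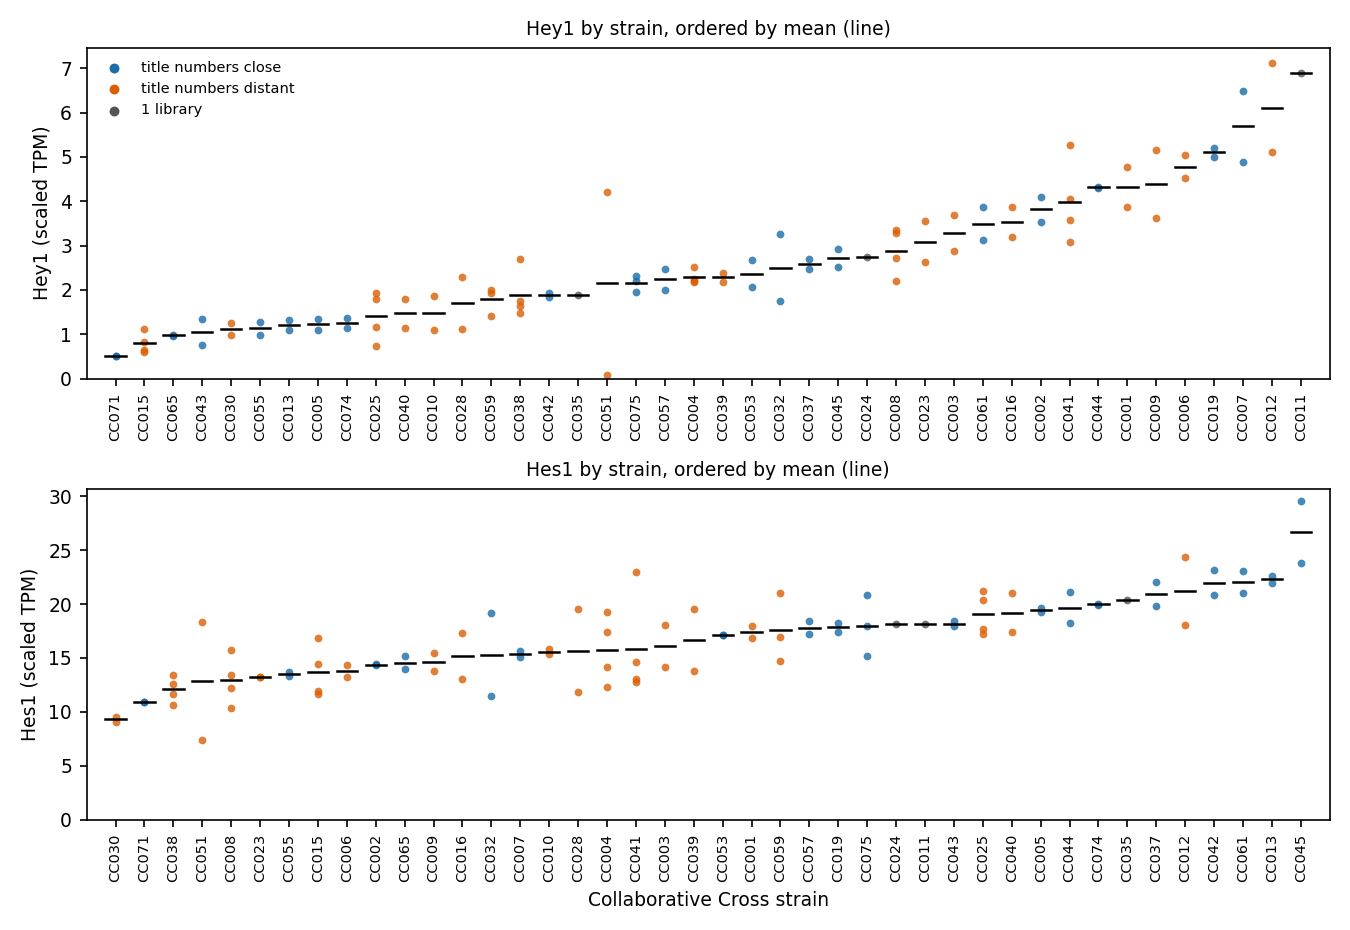
Hey1 (top) and Hes1 (bottom) in scaled TPM for each library of 42 strains, ordered by the strain mean (line); colours mark strains whose sample title numbers lie close together or far apart and strains with 1 library. The CC071 libraries sit at 0.516 and 0.512 for Hey1, and the CC051 libraries lie far apart in both panels.

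Notch1 was highest in CC030, at 3.54 and 3.01 scaled TPM, and lowest in CC037, at 0.609 and 0.770. The means of these strains differed by 1.67 log2 (limma F test, adjusted p = 9.68e-06). CC030 was higher than the others by 0.96 log2 (limma adjusted p = 0.000295). CC038, with 4 libraries from 1.96 to 3.37 scaled TPM, was higher by 0.66 log2 (limma adjusted p = 0.000499), and CC071 by 0.60 log2 (limma adjusted p = 0.0313). CC037 fell below the others by 0.75 log2 (limma adjusted p = 0.00543).

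Notch2 had the same strains at its ends. CC030 had 13.9 and 12.2 scaled TPM and CC037 had 5.55 and 6.30, a difference of 1.08 log2 (limma F test, adjusted p = 0.00261). CC030 was higher than the others by 0.49 log2 (limma adjusted p = 0.0154). CC037 fell by 0.62 log2 (limma adjusted p = 0.00156) and CC057 by 0.42 log2 (limma adjusted p = 0.0420). Notch4 passed the strain test (limma adjusted p = 0.0178), with 0.352 and 0.530 scaled TPM in CC030 and 0.0795 and 0.0606 in CC013, but none of its single strain contrasts passed.

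Jag1 varied by 0.92 log2 between CC032, at 11.6 and 12.8 scaled TPM, and CC028, at 5.81 and 6.61 (limma F test, adjusted p = 0.00331). CC032 was higher than the others by 0.44 log2 (limma adjusted p = 0.0395). CC028 fell by 0.51 log2 (limma adjusted p = 0.0138) and CC043, at 6.27 and 6.35 scaled TPM, by 0.49 log2 (limma adjusted p = 0.0198).

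Of the 31 called contrasts, 17 passed under every alternative of pseudocount, filter, scaling, runs, transcripts, robust fit and omission of CC030, CC051 and CC071 in which the strain and gene were tested, and none changed sign. With each library also left out in turn, 6 passed throughout: Hey1 in CC012, CC015 and CC071, Notch1 in CC030 and CC038, and Hes1 in CC030. The other 25 were lost when some library of the strain itself was left out, and Hes1 in CC008 was lost with 62 of 92 libraries left out. With no filter on low values, Jag1 in CC032, Notch2 in CC057, Hes1 in CC008, Hey1 in CC030 and CC055 and Hey2 in CC041 did not pass. With no scaling, Jag1 in CC028, CC032 and CC043, Notch2 in CC057, Hes1 in CC008 and CC071 and Hey1 in CC030 and CC055 did not pass, and with scaling to protein-coding genes the same contrasts apart from Jag1 in CC028 did not. With a pseudocount of 0.1, Hey1 in CC001, CC009, CC025, CC030, CC043, CC044 and CC055 and Hey2 in CC041 did not pass. Leaving out CC030, CC051 and CC071 ended the call of Notch2 in CC057.

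In 6 strains, 2 or more of these genes passed. In CC030 Notch1 and Notch2 were higher and Hes1 and Hey1 lower, 4 of 8 genes where 30% of all genes passed. In CC071 Notch1 was higher and Hes1 and Hey1 lower, 3 of 8 where 21.2% passed. CC038 had Notch1 higher and Hes1 lower, 2 of 8 where 30.2% passed. CC037 had Notch1 and Notch2 lower, 2 of 8 where 14% passed. CC041 had Hey1 and Hey2 higher (21.7% passed), and CC043 had Hey1 and Jag1 lower (29.3% passed). CC030 and CC071 also had high macrophage marker scores, 2.03 and 1.53, and low osteoblast scores, -1.80 and -1.81, where each score is the mean z-score of a marker list over libraries. The part of these cell types in the Notch gene levels was not tested, and in bulk RNA fewer cells of a type and less RNA per cell cannot be told apart.

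The repeated CC030 sample gives the spread between 2 sequencing runs of 1 sample, and whether a new library was made for the second run is not in the labels. Its runs had deposited TPM of 4.87 and 3.91 for Notch1, 19.2 and 15.3 for Notch2, 10.9 and 11.5 for Hes1 and 1.11 and 1.30 for Hey1. Notch3 had 1.24 and 1.07 in these runs, whereas the other CC030 library had 4.70, so the disagreement of the CC030 libraries for Notch3 was larger than that between runs. Dll1, at 0.0829 and 0.293, changed more between runs than any of these.

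Notch3 and Hey2 did not pass the strain test (limma adjusted p = 0.341 and 0.189), and their libraries of 1 strain often disagreed. For Notch3, CC008 had 1.41, 1.02, 5.34 and 4.25 scaled TPM, and CC041 had 1.59, 2.12, 2.53 and 4.70. For Hey2, CC041 had 1.51, 1.69, 0.383 and 0.286 and passed as higher than the others by 0.57 log2 (SE 0.19, limma adjusted p = 0.0345), although its libraries fell into a high and a low pair. With a pseudocount of 0.1 no strain contrast of Hey2 passed. The highest library of Hey2, CC012 at 1.71 scaled TPM, likewise stood apart from the other CC012 library, at 0.483. Of 95 libraries, 6 reached 1 scaled TPM of Hey2, 3 with title numbers of 12, 19 and 20 and 3 with far higher ones, and all 6 belonged to strains whose title numbers lie far apart.

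No source used here says what the title numbers mean, so strains were divided into 19 whose numbers lie within 5 of each other and 20 with numbers at least 20 apart, for which the lowest and highest numbered library were used. Among the 19, all 8 genes passed the strain test, where 84.5% of all genes did. Notch3 passed there with an adjusted p of 0.00131 and Hey2 with 0.000317 (limma). Among the 20, 3 of 8 passed (Notch1, Jag1 and Hey1), where 41.3% of all genes did. The groups hold different strains, so the number distance and the strains cannot be told apart, and the difference between the groups was not tested.

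The spread within strains differed in the same way. For Hey2 the within-strain SD was 0.149 log2 among close and 0.477 among distant numbers, a ratio of 3.21, and 5.02% of all genes had a ratio at least as large. Hey1 had SDs of 0.196 and 0.541, Hes1 0.154 and 0.331, and Notch3 0.245 and 0.521. Notch4 had 0.207 and 0.192, and Notch2 0.188 and 0.215, so for these the spread was about as large in both groups. The median over all genes was 0.140 and 0.221, and the median ratio was 1.51.

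**Figure D3:**
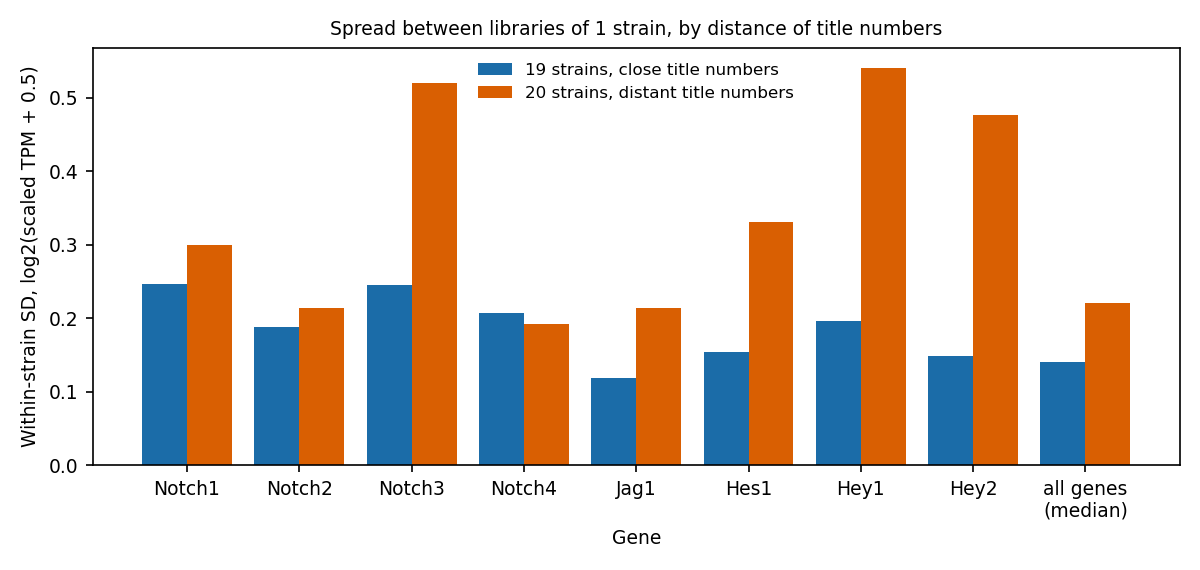
Within-strain SD of log2(scaled TPM + 0.5) for the 8 Notch genes tested and the median over all genes, among 19 strains with close title numbers (blue) and 20 with distant ones (orange). The orange bar is the taller for the median over all genes and for every Notch gene except Notch4, which has bars of 0.207 and 0.192.

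Dll1 and Heyl were tested only in the fit with no filter on low values, where 26691 genes were tested, 8 of 10 Notch genes passed and 56% of all genes did. Dll1 had 0.310 and 0.238 scaled TPM in CC039 and was listed at 0 in both CC003 libraries (limma adjusted p = 0.0482). Heyl had 0.292 and 0.307 in CC061 and 0.0445 and 0.0156 in CC037 (limma adjusted p = 0.00801). These strains were picked as the highest and lowest for each gene. Reads were few, with a median of 4.91 estimated reads for Dll1 and 14.9 for Heyl.

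Relations between the genes were computed over 1 mean for each of 42 strains, with Pearson's r, Spearman's rho and permutation p-values adjusted over 28 pairs. Of the 28 pairs, 8 passed by r, 6 positive and 2 negative, and the smallest called r had a size of 0.44. A correlation of that size with Notch1 was shown by 22.4% of all other genes, with Hes1 by 14.9%, with Hey1 by 9.47%, with Notch2 by 8.81%, with Notch3 by 8.24%, with Notch4 by 7.31%, with Hey2 by 3.78% and with Jag1 by 0.723%.

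Strain means of the receptors Notch1, Notch2 and Notch4 were positively correlated. Notch1 and Notch2 had r = 0.62 and rho = 0.59 (permutation p = 1.00e-05, the smallest that the permutations can give, and 6.00e-05; adjusted 0.000280 and 0.000840). Without the 2 strains farthest from the median of Notch1, r was 0.57, and it was 0.64 among close and 0.59 among distant title numbers. Notch2 and Notch4 had r = 0.59 and rho = 0.60 (adjusted permutation p = 0.000280 and 0.000840), 0.55 without the 2 farthest strains, 0.72 among close and 0.48 among distant numbers. The distant value did not pass (adjusted permutation p = 0.154). Notch1 and Notch4 had r = 0.58 and rho = 0.56 (adjusted permutation p = 0.000653 and 0.00131), 0.55 without the 2 farthest, 0.56 among close and 0.65 among distant. Here the close value did not pass (adjusted permutation p = 0.0584). CC030 was the highest strain for each of these receptors.

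Notch1 and Notch3 had r = 0.48 and rho = 0.50 (adjusted permutation p = 0.00846 and 0.00554), 0.50 without the 2 farthest strains and 0.59 among close numbers. Among distant numbers it was 0.24 and did not pass (adjusted permutation p = 0.554). Without replicate 2 of CC028 or replicate 2 of CC030 it no longer passed, and r came down to 0.25 at the lowest.

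Hes1 was negatively correlated with Notch1 and Notch4. Notch1 and Hes1 had r = -0.53 and rho = -0.46 (adjusted permutation p = 0.00217 and 0.00900), -0.49 without the 2 farthest strains, -0.61 among close and -0.53 among distant numbers, the last with an adjusted permutation p of 0.0913. Without CC030, CC051 and CC071 it was -0.40 and still passed (adjusted permutation p = 0.0371). Notch4 and Hes1 had r = -0.46 and rho = -0.43 (adjusted permutation p = 0.00872 and 0.0164), -0.41 without the 2 farthest, -0.43 among close and -0.64 among distant numbers, and the close value did not pass (adjusted permutation p = 0.225). Without replicate 1 of CC032 this relation no longer passed, at r = -0.36.

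Strain means of Hey2 moved with those of Notch3 and of Jag1. The share of variance between strains was 0.104 for Hey2 and 0.0390 for Notch3, and neither passed the strain test. Their strain means therefore hold much of the spread between libraries. For Notch3 and Hey2, r was 0.46 and rho 0.50 (adjusted permutation p = 0.00872 and 0.00497), 0.40 without the 2 farthest strains, 0.59 among close and 0.40 among distant numbers, and the distant value did not pass (adjusted permutation p = 0.245). For Jag1 and Hey2, r was 0.44 and rho 0.48 (adjusted permutation p = 0.0129 and 0.00770), 0.43 without the 2 farthest, and 0.41 and 0.40 among close and distant numbers, neither of which passed (adjusted permutation p = 0.226 and 0.245). Leaving out replicate 2 of CC012, replicate 1 of CC016, replicate 1 of CC028 or replicate 2 of CC030 ended this call, with r = 0.33 at the lowest.

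Hey1, the gene that differed most between strains, had no called relation with any of the other 7. Its r with Hes1 was 0.23 (rho 0.15, adjusted permutation p = 0.283 and 0.547) and with Notch1 -0.06 (rho 0.01, adjusted permutation p = 0.844 and 0.973). CC030 and CC071 were low for both Hey1 and Hes1, but CC045, the top strain for Hes1, had only 2.72 ± 0.294 scaled TPM of Hey1 (SD, n = 2).

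**Figure D4:**
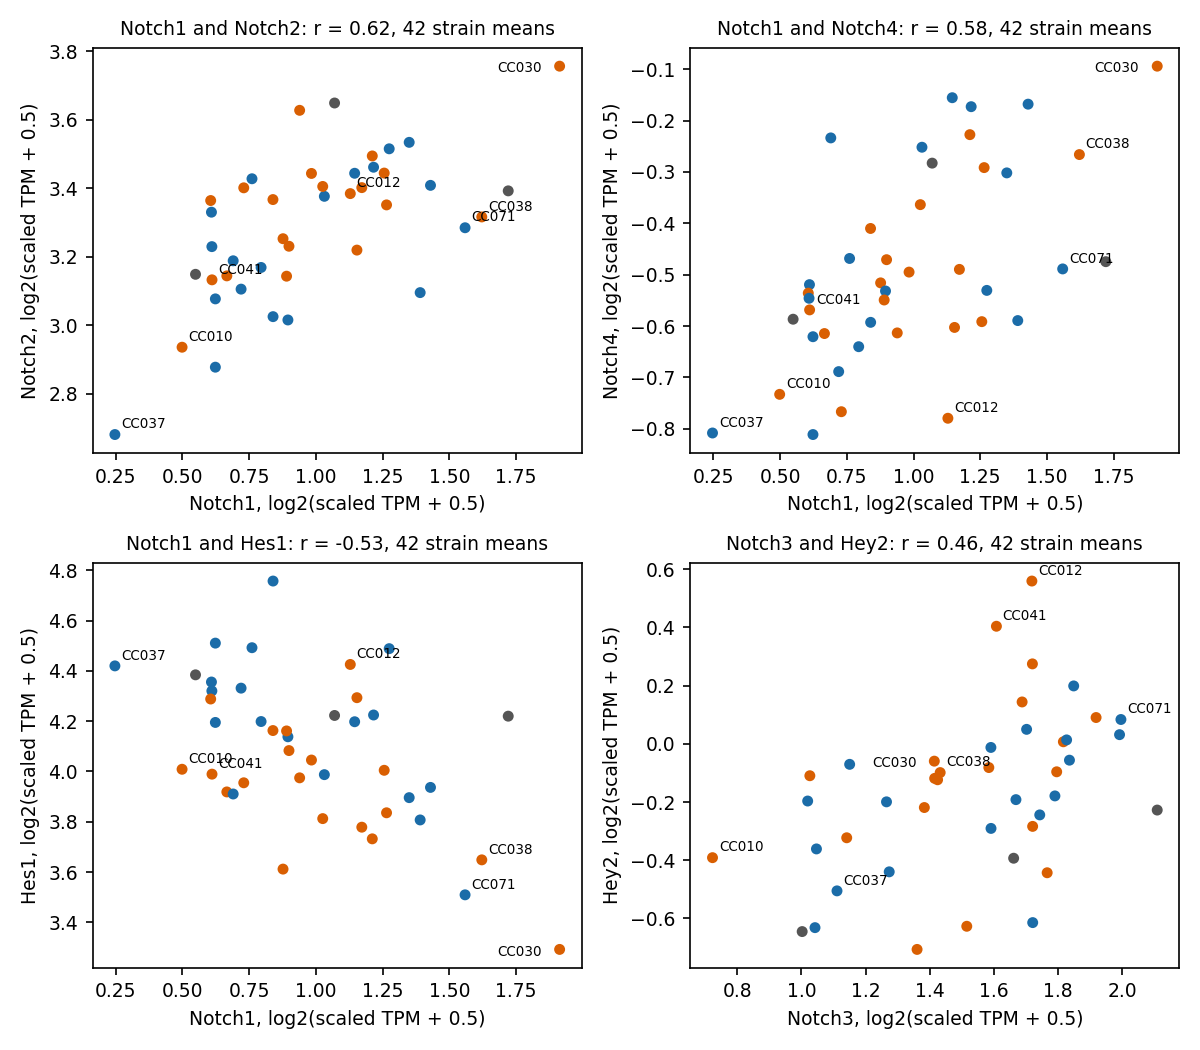
Strain means of log2(scaled TPM + 0.5) for 4 pairs of Notch genes, 1 point per strain, coloured by title numbers close (blue), distant (orange) or 1 library (grey). Notch1 rises with Notch2 (r = 0.62) and Notch4 (r = 0.58) and falls against Hes1 (r = -0.53), with CC030 at the end of all 3 panels, and Notch3 rises with Hey2 (r = 0.46).

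The same strain means were set against scores of cell type markers, 64 relations in all, of which 17 passed by r and 12 by rho. Of the 17, 13 were positive and 4 negative. The 12 include Notch2 with the adipocyte score (rho 0.41, adjusted permutation p = 0.0449). That relation did not pass by r (0.31, adjusted permutation p = 0.126) and is not among the 17. Sizes of at least 0.38 were reached by 22.8% of all genes for the osteoblast score, 24.7% for macrophage, 17.4% for endothelial, 16.8% for adipocyte, 15.2% for smooth muscle and pericyte, 9.31% for skeletal muscle, 6.22% for chondrocyte and 2.63% for neural and glial. The skeletal muscle score rests on 1 measured marker of 7 and the endothelial score on 4 of 8.

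The only called relation of Hey1 was with the osteoblast score, at r = 0.60 and rho = 0.57 (adjusted permutation p = 0.000960 and 0.00352). It was 0.53 without the 2 farthest strains, 0.58 among close numbers, which did not pass (adjusted permutation p = 0.177), and 0.63 among distant ones, which did. Without CC030, CC051 and CC071 it was 0.49 and passed (adjusted permutation p = 0.0282). Of the 10 markers, 8 had a positive r with Hey1, highest for Alpl, tissue non-specific alkaline phosphatase (0.66), Phex, a mineralisation regulator (0.63), and Bglap, osteocalcin (0.61). Spp1, osteopontin, had -0.17 and Dmp1, an osteocyte marker, -0.02. Among strains with at least 2 libraries, CC012 had the highest osteoblast score (1.00) and CC071 the lowest (-1.81), the same strains as for Hey1. CC011, with 1 library, had the highest Hey1 of all 42.

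Hes1 also moved with the osteoblast score, at r = 0.51 (adjusted permutation p = 0.00858), but its rho of 0.31 did not pass (adjusted permutation p = 0.126). It was 0.50 without the 2 farthest strains, 0.48 among close and 0.73 among distant numbers, and 0.14 without CC030, CC051 and CC071 (adjusted permutation p = 0.550). Hes1 fell as the macrophage score (r = -0.45, rho -0.40), the smooth muscle and pericyte score (r = -0.46, rho -0.46) and the adipocyte score (r = -0.41, rho -0.35) rose. Their adjusted permutation p-values were 0.0171, 0.0171 and 0.0328, and the adipocyte relation did not pass by rho (0.0908). Without replicate 2 of CC051 none of the 3 passed. Without CC030, CC051 and CC071 the macrophage relation did not pass (-0.35, adjusted permutation p = 0.130), while the smooth muscle and pericyte (-0.44) and adipocyte (-0.49) relations did.

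Of the receptors, Notch1 moved most closely with macrophage markers. It had r = 0.69 and rho = 0.67 with the macrophage score (adjusted permutation p = 0.000640 for both), 0.61 without the 2 farthest strains, 0.54 among close and 0.71 among distant numbers. It was 0.62 without CC030, CC051 and CC071 and passed (adjusted permutation p = 0.00128). All 10 macrophage markers had a positive r with Notch1, from 0.62 for Fcgr1 to 0.77 for Lyz2. Notch4 (r = 0.48), Notch2 (0.41) and Notch3 (0.38) also passed, and none of these 3 did without those 3 strains. Notch2 did not pass by rho (rho 0.38, adjusted permutation p = 0.0590), and Notch3 had 0.45 among close numbers but 0.05 among distant ones. Summed macrophage markers ranged from 30.2 to 5085 scaled TPM between libraries, and whether macrophages contributed Notch1 RNA was not tested.

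Receptors also had called relations with other scores. Notch1 moved with the adipocyte (r = 0.53), endothelial (0.49) and smooth muscle and pericyte (0.43) scores and against the osteoblast score (-0.40, rho -0.21, not called by rho). Notch2 moved with the chondrocyte score (0.52), which passed without the 3 strains at 0.46, and with the smooth muscle and pericyte score (0.42). Notch3 had r = 0.24 with the smooth muscle and pericyte score and did not pass (adjusted permutation p = 0.238). Notch4 (0.45) and Notch3 (0.38) moved with the endothelial score, whose summed markers reached only 3.52 scaled TPM in any library. Neither passed by rho (adjusted permutation p = 0.126 and 0.0590), and the 4 markers measured had r from -0.05 to 0.34 with Notch4. Without CC030, CC051 and CC071 the relations of Notch1 with the osteoblast (-0.16), endothelial (0.38) and smooth muscle and pericyte (0.37) scores no longer passed. Nor did those of Notch2 with the smooth muscle and pericyte score (0.39) or of Notch4 (0.39) and Notch3 (0.41) with the endothelial score, whereas Notch1 with the adipocyte score passed at 0.56. Several of these rest on single libraries. Of 92 libraries left out in turn, 46 ended the call of Notch3 with the macrophage score (r = 0.21 at the lowest), 39 that of Notch3 with the endothelial score (0.27) and 21 that of Notch1 with the osteoblast score (r = -0.32 at its weakest). Leaving out CC005 replicate 1, CC007 replicate 1, CC016 replicate 1, CC032 replicate 2, CC051 replicate 2 or CC055 replicate 1 ended that of Notch2 with the macrophage score (0.35). Leaving out CC028 replicate 1 ended those of Notch1 (0.38) and Notch2 with the smooth muscle and pericyte score, as did CC044 replicate 2 or CC055 replicate 1 for Notch2 (0.37 at the lowest). CC016 replicate 1 or CC074 replicate 2 ended that of Notch4 with the endothelial score (0.38 at the lowest). Jag1 and Hey2 had no called relation with any score. None of the 17 passed among close numbers alone, where 12 of 64 had an unadjusted permutation p under 0.05, and 7 of the 17 passed among distant numbers. All 17 kept their sign in both groups.

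**Figure D5:**
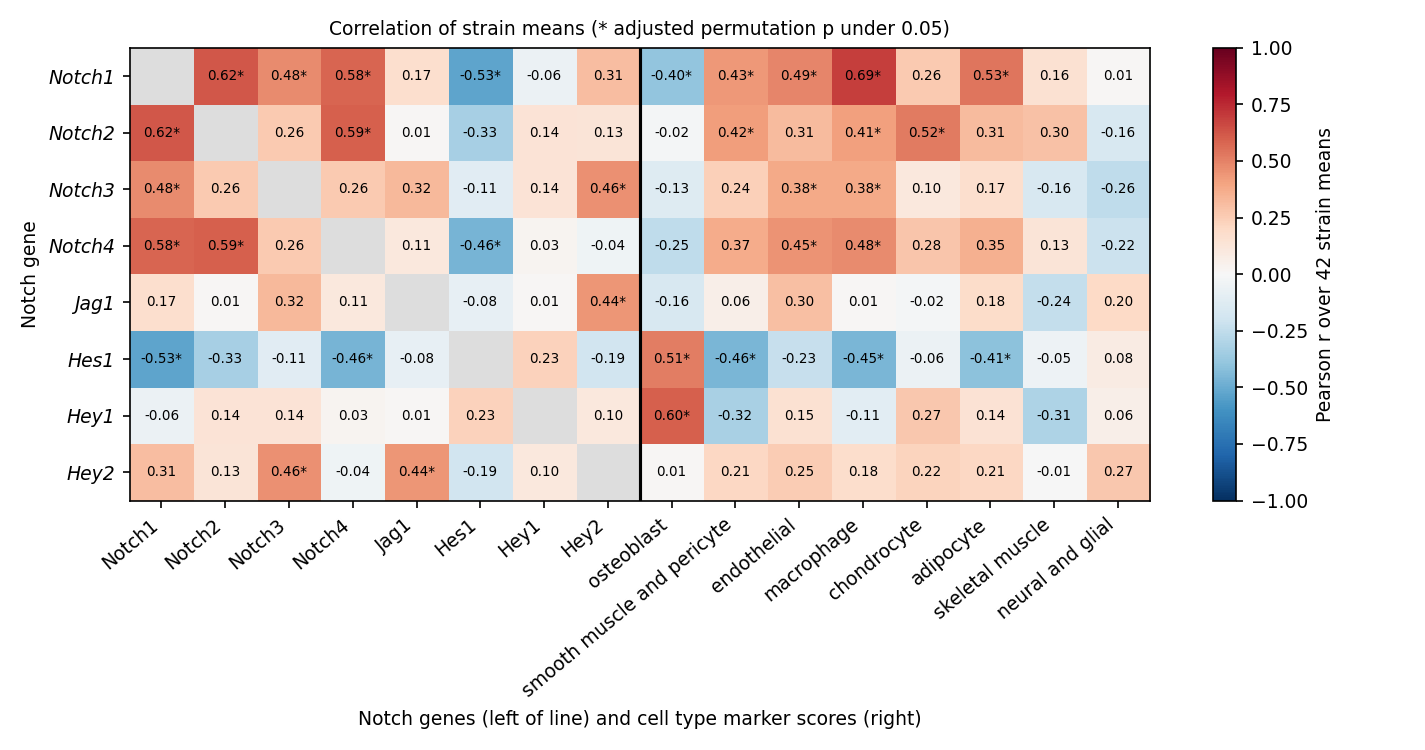
Pearson r over 42 strain means between the 8 Notch genes tested (left of the line) and with 8 cell type marker scores (right), with an asterisk where the adjusted permutation p is under 0.05. Notch1, Notch2 and Notch4 form a positive block, Hes1 is negative with Notch1 and Notch4, and the Hey1 row has an asterisk only at the osteoblast score (0.60).

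Genes most like each of the 8 over strain means were sought among 11204 genes, as a description with no test. Notch1 was closest to Plxnd1, a semaphorin receptor (r = 0.84), and Rab8b, a small GTPase (0.80). Notch2 was closest to Arid1b, a chromatin remodelling subunit (0.75), and Eif4g3, a translation initiation factor (0.74). Notch3 was closest to Aldoa, a glycolytic enzyme (0.74), and Alkbh5, an RNA demethylase (0.73), and Notch4 to Por (0.69) and Ltbp2 (0.66). Jag1 had the weakest neighbours, Pgm1 (0.57) and Raet1d (0.56). Hes1 was closest to Galnt3, a glycosyltransferase (0.72), and Klf8, a transcription factor (0.72), Hey1 to Kansl1l (0.80) and Plxnb1, another semaphorin receptor (0.80), and Hey2 to Slc27a3 (0.70) and Ckap5 (0.69).

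Of 45 other Notch pathway genes, 38 were tested and 32 passed the strain test, near the 81.5% of all genes. Their median share of variance between strains was 0.512. By role, 4 of 4 other ligands tested passed, 1 of 1 other target, 7 of 9 nuclear complex genes, 4 of 4 glycosylation genes, 9 of 10 protease genes and 7 of 10 genes of endocytosis and turnover. Values below are strain means in scaled TPM, with n = 2 libraries unless given.

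Among ligands, Dlk1, a non-canonical ligand, was 9.33 ± 3.76 (SD, n = 4) in CC008 and 0.180 ± 0.0367 in CC037, a range of 3.76 log2 (limma adjusted p = 7.28e-08). Dner, another non-canonical ligand, was 8.31 ± 1.47 in CC061 and 0.313 ± 0.0635 in CC071 (limma adjusted p = 8.66e-11). Jag2 was 3.45 ± 1.40 (SD, n = 4) in CC041 and 0.220 ± 0.0909 in CC043 (limma adjusted p = 2.78e-06). Dll4 was not tested, with a median of 0 and a highest library of 0.0832.

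Rbpj, the DNA-binding partner of the cleaved receptor, was 35.5 ± 17.6 in CC051 and 11.3 ± 1.69 in CC043, a range of 1.53 log2 (limma adjusted p = 1.35e-05), with the CC051 libraries again far apart. Maml2, a Mastermind coactivator, was 2.30 ± 0.136 in CC030 and 0.745 ± 0.0929 in CC016, and the target-family gene Hes6 11.0 ± 3.87 in CC016 and 5.74 ± 0.152 in CC044. Lfng, a Fringe glycosyltransferase that alters ligand preference of the receptors, was 5.34 ± 1.57 in CC030 and 0.693 ± 0.630 in CC051 (limma adjusted p = 8.16e-10). Rfng, another Fringe, was 3.91 ± 1.27 in CC016 and 0.915 ± 0.309 in CC037.

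Aph1c, a subunit of gamma-secretase, the protease that frees the intracellular part of the receptor, was 5.31 ± 0.484 in CC030 and 0.291 ± 0.0315 in CC043 (limma adjusted p = 4.00e-06). Furin, which cleaves the receptor during maturation, was 21.9 ± 3.62 in CC043 and 7.74 ± 1.33 in CC037. Neurl1a, a ubiquitin ligase of the Neuralized family, was 4.38 ± 1.01 in CC030 and 0.366 ± 0.0104 in CC044 (limma adjusted p = 2.79e-14). Dtx4, a ubiquitin ligase of the Deltex family, was 5.82 ± 0.821 in CC006 and 0.572 ± 0.193 in CC012. CC030 was the highest strain for Maml2, Lfng, Aph1c and Neurl1a as well as for Notch1, Notch2 and Notch4.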

How the data were processed

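The authors deposited 1 table for 96 samples, labelled as counts but holding TPM, since every column adds up to 1000000. Bowtie and mm9 are named in the submitters' processing notes. How reads were assigned to transcripts: not given in the sources used here. Of 94545 transcripts, 91225 matched GENCODE identifiers (GRCm38) and were summed into 37945 genes. Because the builds differ, coordinates are given only for RefSeq promoters. TPM were divided by a factor per library (0.772 to 1.27), a trimmed mean of log ratios. Depth is not recorded in TPM and was estimated from values near whole reads (a median of 78.8% within 0.1 read, against 20% by chance).

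Genes with at least 0.5 TPM in 2 libraries were tested with limma 3.58.1 in R 4.3.3 (trend, Benjamini-Hochberg, false discovery rate 0.05, residual df 53) on log2(scaled TPM + 0.5), checked on simulated data. Relations used 100000 two-sided permutations (10000 with a library left out) in Python 3.11.15. The share of variance is the intraclass correlation. Alternatives covered pseudocount, filter, scaling, runs, transcripts, title numbers and single libraries. The genes and lists were chosen with earlier results of these data known. Named were all 10 genes, the highest and lowest strain by mean log2 value, the 2 pathway genes per list with the largest range among those called (also Rbpj, Dll4 and Jag2), and the 2 genes most correlated with each Notch gene. The highest Hey2 libraries and the CC051 libraries were singled out after their values were seen.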

Additional observations from a re-analysis of the deposited data

Results flagged for a closer look

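Within the 6 strains that had 4 libraries, 60 groups (10 genes in each strain) were examined for a single library far from the rest, and 3 were found. Chance alone marks about 1 in 20 such groups. Notch1 in CC025 had 1 library at 0.846 scaled TPM, with the others between 1.07 and 1.09. Notch1 in CC041 had 1 library at 1.81, with the others between 0.764 and 0.909. Heyl in CC004 had 1 library at 0.672, with the others between 0.121 and 0.187.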

How the results depend on the processing

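With each of 92 libraries left out in turn, 6 to 6 Notch genes passed the strain test, 27 to 43 strain contrasts (31 with all libraries), 31 to 33 other pathway genes, 12533 to 13249 of all genes, 6 to 11 relations between Notch genes and 10 to 19 with marker scores, the 10 without replicate 2 of CC051. The median share of variance was 0.321 to 0.405. Among 20 strains with distant title numbers the counts were 3 Notch genes, 4 contrasts, 19 pathway genes, 6510 genes, 4 relations between Notch genes and 8 with marker scores. Among 19 strains with close numbers, with the same residual df of 20, they were 8 Notch genes, 41 contrasts, 35 pathway genes and 13318 genes. There 5 relations between Notch genes and 0 with marker scores passed, 12 of 64 at an unadjusted permutation p under 0.05, and the median share of variance was 0.643. Relations between Notch genes numbered 14 (8 with scaling) with no scaling and 5 with protein-coding transcripts only, where Notch4, part of 3 of the 8, was not tested. Marker relations numbered 6 without CC030, CC051 and CC071 (17 with them). The cause of these changes was not tested. No called result changed sign under any alternative run. Relations that were not called could change sign, such as Hey2 with the osteoblast score, at -0.58 among close and 0.39 among distant numbers. Neither value passed (adjusted permutation p = 0.177 and 0.304). No paired analysis was possible because replicate numbers were given in accession order. Depth limits Dll1, Heyl and Notch4, which rest on a median of 4.91, 14.9 and 15.7 estimated reads.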
